A study of Sus scrofa with 6 samples.

Results

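The genes described here encode the voltage-gated sodium, calcium and potassium channels, the other potassium channels and the chloride channels, together with their accessory subunits, in the loin muscle of pigs. They are the rows of the deposited gene table whose symbol starts with KCN, with SCN and a digit, with CLCN or with CACN, leaving out CACNA1S and KCNJ8. The rule found 108 genes among 25322, without using any measured value. RNA sequencing was done on the loin muscle longissimus dorsi, a large fast muscle along the spine, in 3 libraries labelled Wei and 3 labelled Yorkshire. The Wei pigs received commercial feed and were slaughtered at 90 kg; Yorkshire pigs, a commercial breed, were kept in a similar manner per the labels. No agent was given and no allele is named, and the labels give neither sex nor age, nor a slaughter weight for the Yorkshire pigs. Titles of the Yorkshire libraries carry the code LWH and those of the Wei libraries YH, which the labels do not explain. Whether the libraries stem from different animals is not stated, so p-values here reflect only the spread among 6 libraries, part of which may be technical.

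A skeletal muscle fibre fires when the sodium channel Nav1.4, the product of SCN4A, opens along the surface membrane and the transverse tubules. The spike is sensed by the L-type calcium channel complex of the tubules, whose pore subunit CACNA1S is outside the rule, and which triggers calcium release inside the fibre. The chloride channel ClC-1 (CLCN1) and the inward rectifier potassium channels hold the resting potential and quieten the fibre after a spike, and voltage-gated potassium channels end the spike. ATP-sensitive potassium channels, built from KCNJ11 and a sulfonylurea receptor, open when energy runs low. Defects of SCN4A, CLCN1 and KCNJ2 cause myotonia and periodic paralysis.

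Total counts ranged from 15285197 to 27096747 per library. The channel genes together held from 0.179% to 0.211% of a library's counts, and the ranges of the breeds overlapped. Skeletal muscle markers were abundant in every library: the 6 found in the table summed to between 79600 and 153000 CPM in Wei and between 131000 and 151000 in Yorkshire, with the lowest sum in Wei replicate 1. CPM values are read counts scaled to a common library total, here after TMM scaling, and serve to compare 1 gene between libraries. Yorkshire replicate 3 stood apart in leukocyte markers, at a summed 48.1 CPM for 13 lymphocyte genes against 8.51 to 14.5 in the other libraries. For 12 macrophage genes it had 185 CPM against 47.3 to 59. Wei replicate 2 had 6901 counts on Y-linked genes, where no other library had more than 14. By these counts it differed in sex from all other libraries, and so came from another animal than Wei replicates 1 and 3. Whether any other libraries share an animal is not known. In a whole-muscle sample, fewer cells of a type and less RNA per cell cannot be told apart.

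Most channel genes had few or no reads. Of the 108, 23 had no read in any library, which allows up to 3 reads in all. The filter required about 0.494 CPM in at least 3 libraries. Another 46 had reads but did not meet it and were not tested, and 39 passed. Levels between genes are compared with the deposited FPKM values, which are per length of gene. By mean FPKM over the 6 libraries, 12 genes stood above 10, another 13 between 1 and 10, and 83 at or below 1. The 6 genes with most reads held 79.6% of all channel reads. The ranking in the plot of FPKM levels was led by the accessory subunits of the L-type calcium channel, the ATP-sensitive potassium channel and the muscle sodium channel.

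**Figure D1:**
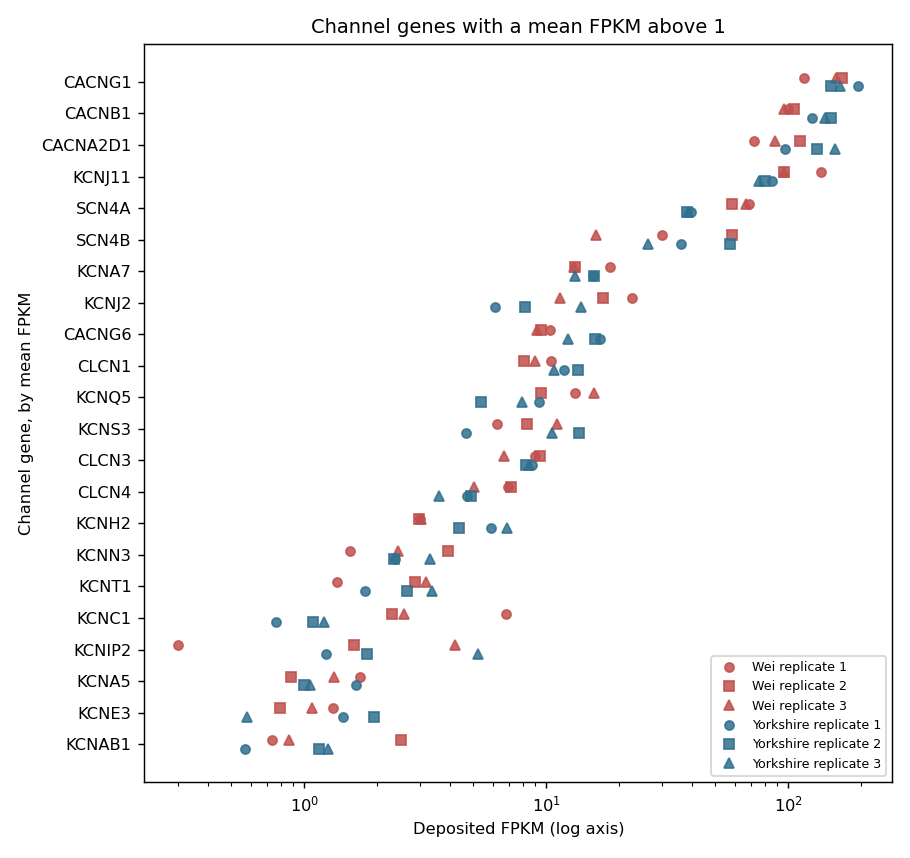
Deposited FPKM (horizontal log axis) of 22 of the 25 channel genes with a mean above 1, ordered by mean; each point is 1 library, red for Wei and blue for Yorkshire. CACNG1 is at the top, with 116 to 195 FPKM. Red and blue points are separate for several genes, among them CACNB1, KCNJ11 and SCN4A. SCN4A is at 58.7 to 68.9 in Wei and 38.3 to 39.8 in Yorkshire.

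The comparison asked which channel genes differ between Wei and Yorkshire loin. SCN4A, the muscle sodium channel, and KCNC1, a fast voltage-gated potassium channel, rose in Wei. KCNH2, a slower potassium channel, KCNIP3, a calcium-binding channel partner, SCN7A, a sodium channel of glia and other non-muscle cells, and KCNK13, a two-pore-domain potassium channel, fell. With edgeR's quasi-likelihood test and Benjamini-Hochberg adjustment over all 13209 tested genes at 0.05, 6 of the 39 tested members (15.4%) passed, against 5.08% of all tested genes. Of the members 2 were higher in Wei (background 2.73%) and 4 were lower (background 2.35%). KCNIP3, SCN7A and KCNK13 passed the filter through Yorkshire libraries alone, so they had to differ and the shares are given as a description only. The Wei and Yorkshire CPM values did not overlap for 14 of the 39 members (35.9%), against 29.6% of all tested genes. Of these, 4 were higher in Wei (background 14.3%) and 10 lower (background 15.3%). DESeq2 called 7 members, adding KCNJ2 and KCNQ5 and leaving out SCN7A, and limma voom called 5, leaving out SCN7A. In each family said below to have no call, these tools made none either, apart from KCNJ2 and KCNQ5 with DESeq2. The median log2 fold change (Wei over Yorkshire throughout) of the tested members was -0.092, against -0.023 over all tested genes.

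**Figure D2:**
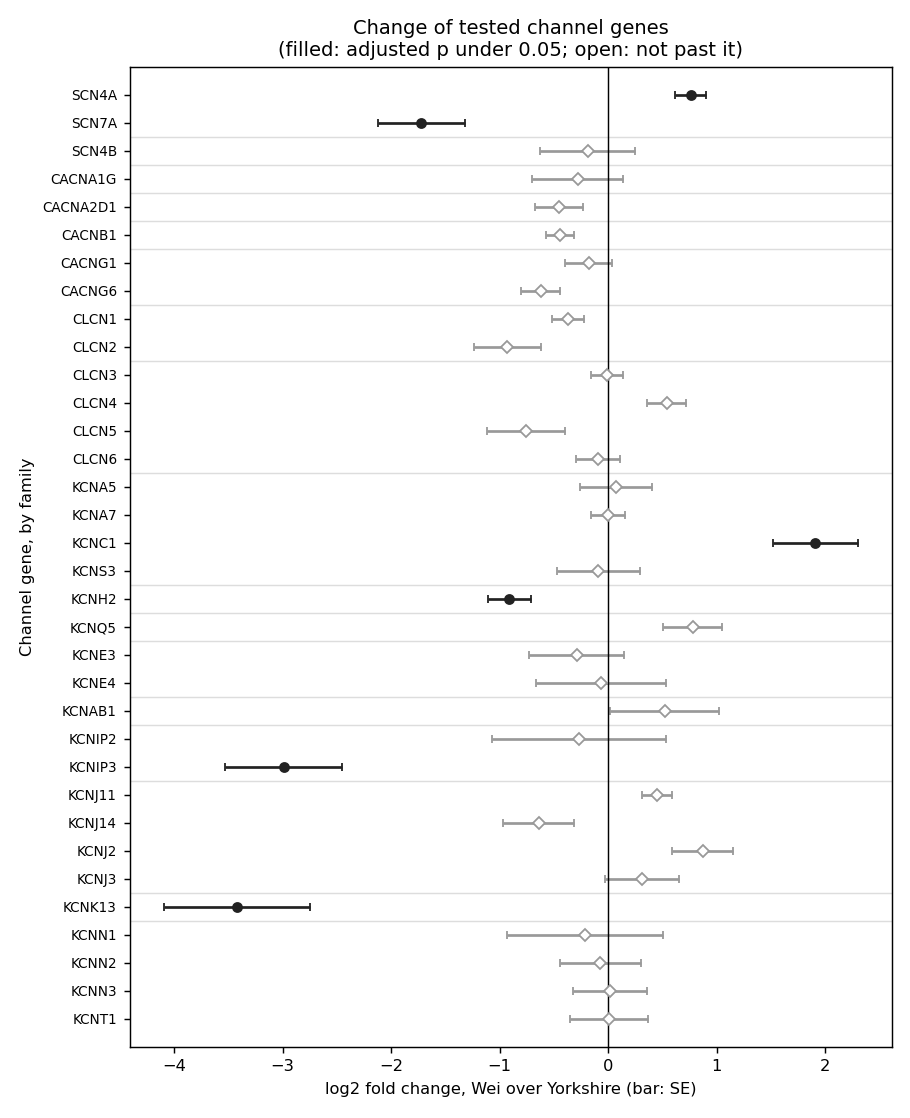
Log2 fold change, Wei over Yorkshire, of 34 of the 39 tested channel genes, with the SE as a bar, grouped by family; filled circles passed an adjusted p of 0.05. The filled points on the right are SCN4A (0.76) and KCNC1 (1.91), and those on the left KCNH2 (-0.91), SCN7A (-1.72), KCNIP3 (-2.99) and KCNK13 (-3.42).

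Among the sodium channel pores, SCN4A (ENSSSCG00000017282, chromosome 12, 15008606 to 15037441 in Sscrofa10.2) was the one abundant gene. Its CPM was 343, 331 and 408 in Wei replicates 1 to 3 and 232, 208 and 197 in Yorkshire replicates 1 to 3. Every Wei library lay above every Yorkshire library, and within each breed the values were close. The means were 361 ± 41.3 (SD, n = 3) and 212 ± 17.5, a 1.7-fold difference, or 0.76 ± 0.14 on the log2 scale (SE; edgeR adjusted p = 0.0261). The adjusted p was 0.0388 without Wei replicate 2. It was between 0.0501 and 0.106 without any one of the other libraries, with log2 fold changes of 0.67 to 0.83.

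SCN7A encodes an atypical sodium channel that senses sodium levels rather than voltage, known from glia and other cells outside the muscle fibre. Its gene (ENSSSCG00000015914, chromosome 15, 81528777 to 81569418) had 6, 3 and 5 reads in the Wei libraries and 21, 20 and 21 in the Yorkshire libraries. All libraries were low, and the Yorkshire libraries were higher in each case. The log2 fold change was -1.72 ± 0.40 (edgeR adjusted p = 0.0469). This call was lost without any one library (adjusted p between 0.0929 and 0.159). It was also lost with all libraries kept, under library size alone (0.0631), no count filter (0.0703), DESeq2 (0.0808) and limma voom (0.0656). Schwann cell and nerve markers, 8 genes, none of them without a read, summed to 19.4 to 30.7 CPM in Wei and 18.5 to 25.7 in Yorkshire, so they overlapped. Fibroblast markers, 6 genes, none without a read, summed to 338 to 708 CPM in Wei and 689 to 1060 in Yorkshire. These overlapped only in that Wei replicate 2 (708) lay above Yorkshire replicate 1 (689). The median log2 fold change of the fibroblast list was -0.80, and DPT passed as lower in Wei (edgeR adjusted p = 0.0189). The part of either list in the SCN7A result was not tested.

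SCN7A lies in a row of sodium channel genes on chromosome 15, and the other members of that row were barely detected. SCN9A, a channel of pain fibres next to it, had 3 reads in all Wei libraries and 10 in Yorkshire. SCN1A, a neuronal channel, had 2 and 9. SCN3A had 12 and 17 and SCN2A 1 and 4.

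The sodium channel beta subunits, which steer the pore to the membrane and tune its gating, gave no call: 0 of 3 passed edgeR's test, and 0 had an unadjusted p under 0.05. Of all tested genes 23.3% had such a p, and the counts at this level given here for genes past the filter are to be read against that share. SCN4B, a beta subunit that supports resurgent current, spread widely within each breed. It was at 130, 288 and 84.6 CPM in Wei and 183, 271 and 118 in Yorkshire, a coefficient of variation of 63.6% and 40.2%. The SE of its log2 fold change was 0.44, against 0.14 for SCN4A.

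The accessory subunits of the L-type calcium channel were the most abundant channel genes per length, and none of them passed edgeR's test, with 2 at an unadjusted p under 0.05. CACNG1, the gamma subunit of muscle, had a mean of 146 ± 26.7 FPKM in Wei and 169 ± 23 in Yorkshire. CACNB1, the beta subunit that brings the pore to the tubule, had 101 ± 5.02 and 139 ± 12.8. CACNA2D1, the large extracellular subunit, had 90.8 ± 20.3 and 128 ± 29.6. All 3 means were lower in Wei, and the breeds were separate only for CACNB1.

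In CPM, CACNB1 stood at 294, 354 and 345 in Wei and at 430, 482 and 432 in Yorkshire. No Wei library reached the lowest Yorkshire library, but the log2 fold change of -0.44 ± 0.13 had an edgeR adjusted p of 0.0963. CACNG6, a second gamma subunit of muscle, was at 11.3, 11.7 and 12.2 CPM in Wei and 21.3, 18.9 and 13.8 in Yorkshire, again without overlap (-0.62 ± 0.18, adjusted p = 0.0885). For CACNA2D1 (-0.45 ± 0.22, adjusted p = 0.27) and CACNG1 (-0.18 ± 0.22, adjusted p = 0.667) the libraries overlapped. All 5 tested calcium channel members had a negative log2 fold change, the fifth being CACNA1G, a T-type pore, at -0.28 ± 0.42.

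Calcium channel subunits known mainly from brain and heart appeared at a few reads, and the low counts leaned to Yorkshire for several. CACNG8, a subunit of brain glutamate receptors that sits next to CACNG6 on chromosome 6, had 1, 0 and 1 reads in Wei and 9, 5 and 10 in Yorkshire. CACNG4, next to CACNG1 on chromosome 12, had 2, 0 and 3 against 10, 10 and 11. CACNA2D2 had 2, 4 and 0 against 16, 7 and 13. The Wei libraries were below the Yorkshire libraries for each of these 3 genes. Without a count filter their log2 fold changes were -2.95 ± 0.93, -2.17 ± 0.78 and -2.03 ± 0.81, and edgeR's adjusted p was 0.0848, 0.142 and 0.187. CACNA1C, the heart pore, had 14 reads in Wei and 23 in Yorkshire, and CACNB2 18 and 40. These genes were picked out after their values were seen, except CACNA1C.

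Of the chloride channel family none of 6 tested genes passed edgeR's test, while 3 had an unadjusted p under 0.05 (23.3% of all tested genes did). CLCN1, the channel that carries most of the resting conductance of muscle, stood at 28.4, 24.8 and 29.7 CPM in Wei and 37.4, 39.9 and 30.2 in Yorkshire. The breeds did not overlap, but Wei replicate 3 and Yorkshire replicate 3 almost met, and the log2 fold change of -0.37 ± 0.15 had an adjusted p of 0.178. CLCN2, a widely made relative, had -0.93 ± 0.31 (adjusted p = 0.123). Its locus overlaps that of FAM131A, and without a known strand setting their reads cannot be told apart.

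The vesicle exchangers, which load acid compartments with chloride, did not move together. CLCN4, on the X chromosome, stood at 36.6, 42.6 and 32.1 CPM in Wei and 28.8, 28 and 19.5 in Yorkshire (0.54 ± 0.18, adjusted p = 0.122). CLCN5, also on the X chromosome, had -0.76 ± 0.36 (adjusted p = 0.237), at 0.489 to 0.769 CPM in Wei and 0.885 to 1.31 in Yorkshire. CLCN3 (-0.009 ± 0.15) and CLCN6 (-0.092 ± 0.20) lay near 0, with libraries of both breeds mixed.

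Among the voltage-gated potassium channel pores named KCNA to KCNV, 1 of 6 tested genes passed. KCNC1 (ENSSSCG00000013374, chromosome 2, 44433059 to 44467978) encodes Kv3.1, known from fast-spiking neurons for its very fast opening and closing. It had 9.47, 3.64 and 4.4 CPM in Wei and 1.25, 1.66 and 1.75 in Yorkshire. Each Wei library was more than double the highest Yorkshire library, and Wei replicate 1 was the highest of all. The means were 5.84 ± 3.17 and 1.55 ± 0.266, a 3.75-fold difference (log2 1.91 ± 0.39, edgeR adjusted p = 0.0352). The log2 fold change was 1.38 without Wei replicate 1 (adjusted p = 0.061), and the adjusted p was 0.0297 without Wei replicate 2. Without any one of the remaining libraries it was between 0.0615 and 0.118.

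The potassium channel pores that muscle makes at a higher level gave no call. KCNA7, a muscle channel and the most abundant of this group at 14.8 ± 3.03 FPKM in Wei and 14.8 ± 1.51 in Yorkshire, had nearly equal means. KCNS3, a silent subunit that forms channels only with other pores, had a log2 fold change of -0.09 ± 0.38, and its lowest libraries were Yorkshire replicate 1 and Wei replicate 1. KCNA5, a pore known from the heart's atria, was low in every library (0.073 ± 0.33).

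KCNA3, the potassium channel of T cells, was under the filter with 1, 1 and 5 reads in Wei and 9, 5 and 19 in Yorkshire. Its highest count was in Yorkshire replicate 3, the library with most lymphocyte markers, and the tested markers of that list had a median log2 fold change of -1.53. KCNAB2, a beta subunit of such channels, had 7 of its 9 reads in Yorkshire replicate 3. KCNK6, a two-pore-domain channel, had 29 of its 52 there. The part of blood cells in these counts was not tested.

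KCNH2 (ENSSSCG00000016448, chromosome 18, 6719117 to 6725583) encodes the ERG channel, which repolarises heart muscle and has been linked to muscle wasting. It stood at 6.69, 7.54 and 8.27 CPM in Wei and 15.5, 10.6 and 16 in Yorkshire. All Wei libraries lay below all Yorkshire libraries, of which replicate 2 was the lowest. The means were 7.5 ± 0.793 and 14 ± 2.96, a log2 fold change of -0.91 ± 0.20 (edgeR adjusted p = 0.0403). The call was lost without any one library, with an adjusted p between 0.0566 (without Yorkshire replicate 2) and 0.114 and a log2 fold change between -1.07 and -0.80. The other 5 KCNH genes were not tested: 4 had no read and KCNH4 had 3.

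The KCNQ channels carry slow, voltage-gated currents that damp excitability, and neither of the 2 passed edgeR's test, both with an unadjusted p under 0.05. KCNQ5, the one prominent in muscle, stood at 68.8, 57 and 101 CPM in Wei and 57.6, 30.9 and 43.4 in Yorkshire. The ranges met at Wei replicate 2 and Yorkshire replicate 1, and the log2 fold change was 0.78 ± 0.27 (adjusted p = 0.126).

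**Figure D3:**
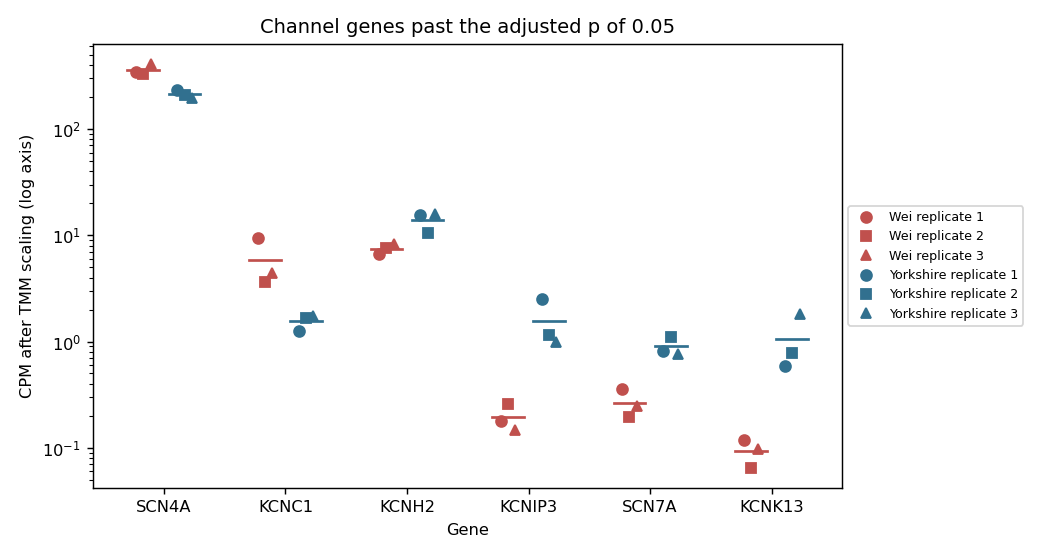
CPM after TMM scaling (log axis) of the 6 channel genes past an adjusted p of 0.05; each point is 1 library and the line is the mean of 3. SCN4A, at 197 to 408 CPM, is more than 10 times as abundant in reads as any of the other 5, and KCNIP3, SCN7A and KCNK13 lie below 0.4 CPM in all Wei libraries.

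Accessory subunits of the potassium channels held the second largest change. KCNIP3 (ENSSSCG00000008119, chromosome 3, 48408142 to 48441215), also called DREAM or calsenilin, binds calcium, modulates A-type potassium channels and represses transcription in the nucleus. It had 3, 4 and 3 reads in the Wei libraries and 64, 21 and 27 in the Yorkshire libraries. In CPM this was 0.178, 0.26 and 0.147 against 2.5, 1.16 and 0.984. The highest Wei library was below the lowest Yorkshire library, and Yorkshire replicate 1 was high within its breed. The log2 fold change was -2.99 ± 0.54, a 7.93-fold difference (edgeR adjusted p = 0.0254). Without Yorkshire replicate 1 it was -2.44 (adjusted p = 0.0481). The adjusted p passed also without Wei replicate 2 or Yorkshire replicate 3, and it was 0.0752, 0.0804 and 0.0716 without Wei replicate 1, Wei replicate 3 and Yorkshire replicate 2.

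KCNIP2, the relative of KCNIP3 that builds the transient outward current of the heart, varied more within than between breeds. It stood at 0.592, 3.58 and 10.1 CPM in Wei and 2.81, 3.87 and 10.6 in Yorkshire. The coefficient of variation was 102% and 73.3%, the log2 fold change was -0.27 ± 0.80, and it ran from -1.49 to 0.54 as single libraries were left out. KCNE3, a small subunit that partners muscle and gut channels, had -0.29 ± 0.44 and KCNE4, an inhibitory one, -0.063 ± 0.60. KCNAB1, which can speed the inactivation of Kv1 channels, had 0.52 ± 0.50, with Wei replicate 2 at 6.89 CPM above the 1.6 to 3.13 of all other libraries.

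Both abundant inward rectifiers had a higher mean in Wei, and none of the 4 tested genes passed edgeR's test, with 2 at an unadjusted p under 0.05. KCNJ2, the classical inward rectifier of the resting muscle membrane, stood at 24.8, 21.4 and 15.3 CPM in Wei and 7.89, 9.79 and 15.8 in Yorkshire. Yorkshire replicate 3 reached into the Wei range, and the log2 fold change was 0.87 ± 0.28 (edgeR adjusted p = 0.108; DESeq2 adjusted p = 0.032). KCNJ11, the pore of the ATP-sensitive channel, stood at 144, 115 and 124 CPM in Wei and 106, 92 and 82.5 in Yorkshire. These did not overlap, and the log2 fold change was 0.45 ± 0.14 (adjusted p = 0.108). KCNJ14 (-0.64 ± 0.33) and KCNJ3, a subunit of G protein-gated channels (0.31 ± 0.34), were low and their libraries overlapped.

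KCNJ5, another G protein-gated subunit, known from the heart's pacemaker and the adrenal, had the most uneven counts of all members. It had 19, 1 and 63 reads in the Wei libraries and 0, 1 and 0 in the Yorkshire libraries. Reads came almost wholly from Wei replicates 1 and 3, and Wei replicate 2 did not differ from Yorkshire. Summed over the breeds, 83 reads stood against 1, a ratio per total count of 109 with an exact 95% Clopper-Pearson interval of 19.1 to 4370, which covers counting error only. It did not pass the filter. Fitted without a filter, it had an edgeR adjusted p of 0.0249, and it was singled out after its values were seen. KCNJ16, a kidney and brain subunit that neighbours KCNJ2, had no read in Wei and 5, 1 and 9 in Yorkshire. That is 3.8-fold higher if 3 reads are allowed for the Wei libraries together and the Yorkshire reads are taken as exact. Without a filter its edgeR adjusted p was 0.115.

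**Figure D4:**
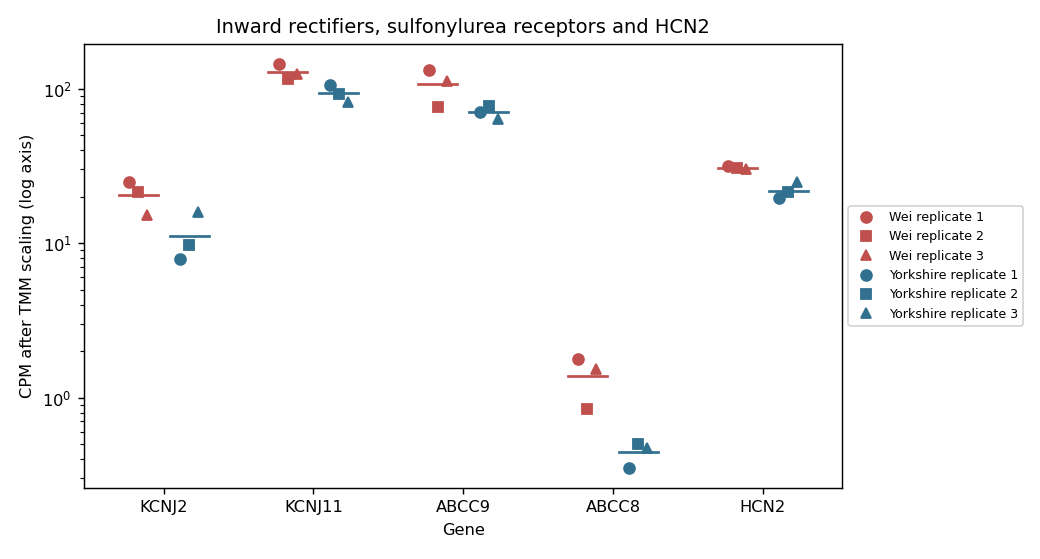
CPM after TMM scaling (log axis) of the inward rectifiers KCNJ2 and KCNJ11, the sulfonylurea receptors ABCC9 and ABCC8 and the pacemaker channel HCN2; each point is 1 library, lines are means of 3. The Wei means are above the Yorkshire means for all 5 genes, and the ranges overlap for KCNJ2 and ABCC9.

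Partners outside the rule were taken from a list of 37 channel partners and regulators, of which 25 rows were tested: 2 were higher in Wei, 1 was lower, and the median log2 fold change was -0.022. ABCC8, the sulfonylurea receptor of pancreas and brain, rose, from 0.352, 0.498 and 0.474 CPM in Yorkshire to 1.77, 0.845 and 1.52 in Wei (1.65 ± 0.39, edgeR adjusted p = 0.0492). The same call failed with library size alone (0.0668), with limma voom (0.0654), with the replicate number as a block (0.0902) and without any one library but Wei replicate 2 (0.116 to 0.141). Its Yorkshire libraries lay near or below the level that the filter requires, so the call is given as a description. ABCC9, the receptor that muscle mainly makes, had 132, 76 and 112 CPM in Wei and 71.1, 76.7 and 63.6 in Yorkshire (0.60 ± 0.20, adjusted p = 0.118). HCN2, a pacemaker channel, had 31.4, 30.7 and 30.1 CPM in Wei and 19.5, 21.3 and 24.8 in Yorkshire without overlap (0.49 ± 0.13, adjusted p = 0.075). JPH2, which ties the tubule to the calcium store, fell by 0.61 ± 0.14 on the log2 scale (adjusted p = 0.045), and the call was lost with the replicate block (0.0854) and without any one library (0.0669 to 0.145).

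The sodium pump restores the ion gradients that channels run down. Of its 12 listed genes 7 were tested and 0 passed edgeR's test, with 2 at an unadjusted p under 0.05 and a median log2 fold change of 0.12; DESeq2 called 2 and limma voom 0. ATP1B4, a muscle beta subunit, had a log2 fold change of 0.76 ± 0.26 (edgeR adjusted p = 0.13).

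KCNC1, ABCC8 and KCNJ11 are close together on chromosome 2 in Sscrofa10.2, with 348 kb from the end of KCNC1 to the start of KCNJ11. All 3 had Wei libraries above all Yorkshire libraries, with log2 fold changes of 1.91, 1.65 and 0.45. Of the 4 other genes listed between them 2 were tested, with changes of 0.47 ± 0.24 and -0.062 ± 0.29, and in both the libraries overlapped. This stretch was looked at after the values were seen.

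The two-pore-domain potassium channels, which leak potassium at rest, had 10 members, of which 1 was tested and 3 had no read. KCNK13 (ENSSSCG00000002432, chromosome 7, 118431048 to 118546572), known from microglia, the macrophages of the brain, had 2, 1 and 2 reads in Wei and 15, 14 and 50 in Yorkshire. On the log2 scale the difference was -3.42 ± 0.67, the largest in size among the tested members (edgeR adjusted p = 0.0306). Of its 79 Yorkshire reads 50 came from replicate 3, the library with the highest macrophage marker sum. Without that library it had too few reads for the filter, and with no filter it had -2.75 ± 0.72 and an adjusted p of 0.0521. Yorkshire replicates 1 and 2 also stood above all Wei libraries, at 0.586 and 0.774 CPM against 0.065 to 0.118. In these 2 libraries the 12 macrophage markers, none without a read, summed to 47.3 and 56 CPM, against 48.4 to 59 in the Wei libraries. Among these markers C1QB, picked out after its values were seen, stood at 6.33 and 5.31 CPM in the 2 libraries and at 3.12 to 3.73 in Wei. CSF1R went the other way, at 4.61 and 6.91 CPM against 6.98 to 11.3 in Wei. For the other tested markers the 2 libraries overlapped with Wei. The part of macrophages in the KCNK13 result was not tested. The adjusted p was 0.0327 without Yorkshire replicate 1 and between 0.0719 and 0.0867 without Yorkshire replicate 2 or any Wei replicate. KCNK1 had no read in Wei and 2, 2 and 6 in Yorkshire. That is 2.53-fold higher if 3 reads are allowed for Wei and the Yorkshire reads are taken as exact. Without a filter its edgeR adjusted p was 0.158. KCNK2, a stretch-gated channel, had 17 reads in Wei and 16 in Yorkshire.

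Calcium- and sodium-activated potassium channels gave no call: 0 of 4 tested genes passed edgeR's test and 0 had an unadjusted p under 0.05. KCNN3, a small-conductance channel that denervated fibres make, had 3.55, 10.3 and 6.85 CPM in Wei and 6.41, 5.97 and 7.94 in Yorkshire (0.018 ± 0.34). KCNT1, a sodium-activated channel, had 0.0091 ± 0.36, KCNN1 -0.21 ± 0.72 and KCNN2 -0.071 ± 0.37. KCNMB1, the smooth muscle subunit of the large-conductance channel, had 28 of its 65 reads in Wei replicate 3. That library also had the highest sum of smooth muscle and pericyte markers, 562 CPM against 266 to 426 in the others, and their part in the count was not tested. The row named KCNMA1, the pore of that channel, lies on an unplaced scaffold and had 19 reads in Wei and 15 in Yorkshire.

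**Figure D5:**
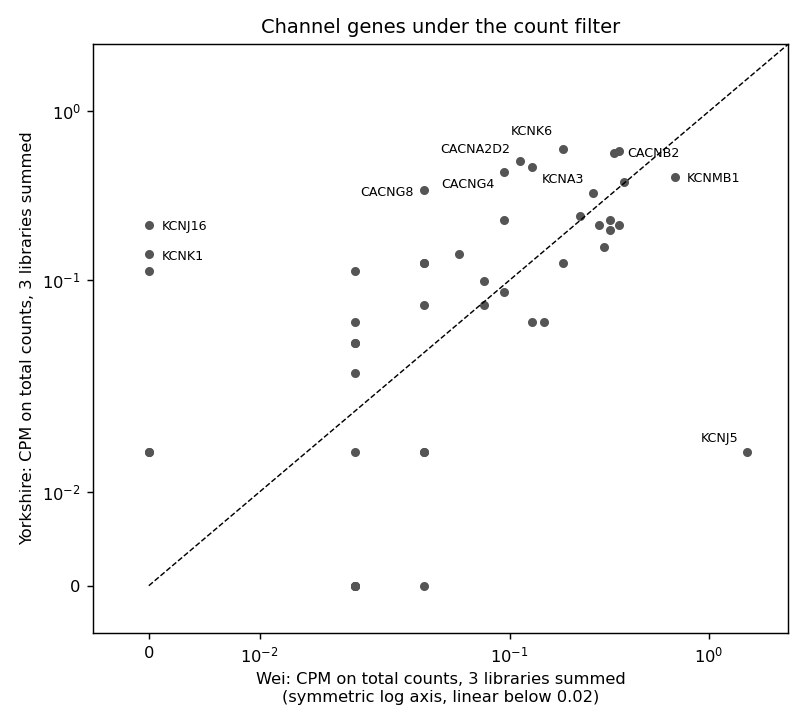
CPM on total counts, summed over 3 libraries, in Wei (horizontal) and Yorkshire (vertical), for the 46 channel genes with reads that did not pass the filter; both axes are symmetric log axes, linear below 0.02, and the dashed line marks equal values. KCNJ5 is alone at the lower right, and CACNG8, CACNG4, CACNA2D2 and the 2 labelled genes without a Wei read, KCNJ16 and KCNK1, lie above the line.

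Of the 46 members with reads below the filter, 26 (56.5%) had a lower summed CPM in Wei, against 58.5% of all 5336 genes of that kind, so the lean to Yorkshire was that of low genes in general. Without a filter, 1 of them passed edgeR's test, KCNJ5, where 814 of all 18545 genes in that fit passed. An unadjusted p under 0.05 was seen for 8 of them. The share of all genes at that level was not taken for this fit, so this count is a description only.

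Markers of fibre type and of immature or denervated fibres were set beside the channel genes, since several channels mark such fibres. Of 13 tested slow and fast fibre markers 0 passed edgeR's test, with 2 at an unadjusted p under 0.05 and a median log2 fold change of 0.18. Those 2 went opposite ways, MYL3 at 0.31 ± 0.13 and MYBPC1 at -0.51 ± 0.18. The median pools slow and fast markers, so it cannot show a shift from slow to fast fibres or back. Among 7 tested markers of immature or denervated fibres, 1 passed, CHRNG, a receptor subunit of fetal and denervated fibres. It was at 1.94 ± 0.234 CPM in Yorkshire and 0.0755 ± 0.0917 in Wei (edgeR adjusted p = 0.0102, or 0.0511 without Yorkshire replicate 2). CHRNG reached the filter through the Yorkshire libraries alone, so it had to differ and its call is given as a description. The remaining 6, among them MYOG and NCAM1, did not pass, and the list had a median of -0.51. The part of such fibres in the KCNH2 values was not tested. Of the other marker lists, endothelial genes (9 tested, median -0.017) gave no call, smooth muscle and pericyte genes 1 of 11 tested rows lower (median -0.55), adipocyte genes 1 of 4 higher (median 0.24) and fibroblast genes 1 of 6 lower (median -0.80). Schwann cell and nerve genes gave none of 4 (median 0.60), lymphocyte genes none of 6, macrophage genes none of 11 (median -0.64) and skeletal muscle genes none of 6 (median -0.083). At an unadjusted p under 0.05 there were 8 smooth muscle and pericyte rows, 5 lymphocyte genes, 3 fibroblast genes, 1 each of the endothelial, nerve, macrophage, adipocyte and immature fibre genes, and 0 skeletal muscle genes. Of the 8 smooth muscle and pericyte rows 7 were at a lower level in Wei and 1, SMTN, at a higher level. The lower rows included PDGFRB and NOTCH3 with more than 1 row each, so the 11 tested rows stand for 9 genes. The part of these genes in the channel results was not tested. DESeq2 called 2 lymphocyte genes, 1 macrophage gene and 0 in the other lists without an edgeR call, fibre type markers included, and limma voom called 0 in all of these.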

How the data were processed

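Raw counts and FPKM values per Ensembl gene were deposited by the authors in 1 table, per the file headers. Tools named in the submitters' processing notes, without their roles, are CASAVA 1.7, TopHat2 2.0.9 and edgeR, and the genome build is Sscrofa10.2. The counter and its strand setting are not stated there, so reads of overlapping or similar genes, such as neighbouring sodium channel genes, may be split wrongly. Libraries were grouped by breed label. Using edgeR 4.0.16 in R 4.3.3, genes were kept by filterByExpr (minimum count 10) and scaled by TMM, and 13209 were tested by glmQLFit and glmQLFTest on breed alone, with Benjamini-Hochberg adjustment at 0.05. The SE is the size of the unshrunk log2 fold change over the square root of F, whereas the log2 fold changes given include edgeR's small prior count. The deposited FPKM values compare levels between genes; over 4854 genes above 200 counts they were proportional to the counts. Marker lists also used 1774 symbols matched by ID to a reference table. Every 2 libraries differed beyond counting noise (chi-square at least 26.7 times its degrees of freedom). The replicate numbers, whose libraries' deviations had correlations of 0.137, -0.00664 and 0.0222, were not taken as pairs. The procedure was tested on simulated data.

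Named genes were the called members, the most abundant of each family, members without overlap and with a log2 fold change of at least 1 in size, and a fixed set; some are not reported here. Members and lists were chosen with earlier results of these data known. Alternatives were RLE or library-size scaling, no filter or 1 CPM, DESeq2 1.42.0, limma voom 3.58.1, a replicate block, thresholds, reference names and leaving out each library. Leaving out Yorkshire replicate 3 or Wei replicate 2 without a filter was added after seeing the data. Figures were drawn with matplotlib 3.10.9. Floors allow 3 counts where no read was seen, and fold values on them take the reads of the other breed as exact. Like intervals, they cover counting error only.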

Additional observations from a re-analysis of the deposited data

How the results depend on the processing

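None of the 6 called channel genes changed sign under any alternative in which it was tested, which their non-overlapping values almost fix; 14 of the 23 named genes without a call did under at least 1. The 671 calls over all genes became 1291 with DESeq2, 52 at an adjusted p under 0.01 and 1469 under 0.1, and 60 to 394 as single libraries were left out. The 2 channel genes higher in Wei became 4 with DESeq2, which added KCNJ2 and KCNQ5, and 0 at 0.01. They numbered 0 to 3 as single libraries were left out and 3 or 4 without a filter and without Yorkshire replicate 3 or Wei replicate 2. The 4 lower became 2 with the 1 CPM filter, which drops SCN7A and KCNK13 from the test, and 0 at 0.01. They numbered 0 to 2 as single libraries were left out, and 2 or 3 without a filter and without Yorkshire replicate 3 or Wei replicate 2. The stricter thresholds and smaller fits lower counts by construction; the cause of the DESeq2 counts was not tested. With the replicate number as a block, 1 gene was higher (SCN4A) and 2 were lower (KCNIP3 and KCNK13), and 477 genes were called in all; KCNC1 (0.0589), KCNH2 (0.0584) and SCN7A (0.0911) missed the threshold. The scalings shifted the all-gene median by 0.019 on the log2 scale or less. Members under about 0.494 CPM rest on about 10 reads or fewer per library, which limits what can be seen of them.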

Other observations

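The reference table of gene names gave a channel symbol to 18 further rows that have none in the deposited table, of which 3 were tested and 0 passed edgeR's test, with 0 at an unadjusted p under 0.05. A second row named KCNMA1, on chromosome 14, had 7.98, 7.08 and 6.41 CPM in Wei and 2.5, 8.01 and 6.22 in Yorkshire, with Yorkshire replicate 1 the lowest (log2 fold change 0.37 ± 0.37). The large-conductance channel was thus measured by this row more than by the row on an unplaced scaffold. KCNC4, a fast potassium channel of muscle and a relative of KCNC1, had 6.15, 1.69 and 3.96 CPM in Wei and 7.34, 2.6 and 3.89 in Yorkshire (-0.23 ± 0.49), so it spread widely in both breeds. CLCN7, the lysosomal chloride exchanger, had 5.32, 6.04 and 4.45 CPM in Wei and 3.48, 4.03 and 4.15 in Yorkshire without overlap (0.44 ± 0.20, adjusted p = 0.231). A second row named KCNAB2 had 26 of its 41 reads in Yorkshire replicate 3.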
